A study of Mus musculus with 6 samples.

Results

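Cytochrome P450 genes were described in RNA of tissue labelled as terminal ileum from mice given dextran sulfate sodium (DSS), a polymer that injures the gut epithelium. The members were all gene symbols made of Cyp, a family number, a subfamily letter and a gene number, with nothing after it. This pattern found 91 of the 23402 symbols in the deposited table. It passed over 11 other P450-like symbols, among them Cyp51 and copies with a trailing letter or a pseudogene mark. The 91 members fell into 16 families and 38 subfamilies.

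The study compared Il17rafl/fl;Atoh1-cre+ mice (Cre-positive, 3 libraries) with mice of the genotype Il17rafl/fl;Atoh1-cre- (Cre-negative, 3 libraries). Both alleles of Il17ra, the gene of an interleukin-17 receptor subunit, were floxed in both groups, both groups received DSS, and tissue was taken on day 6 from mice aged 6 weeks. Atoh1-driven Cre acts in the secretory lineage of the gut epithelium (Paneth, goblet and endocrine cells), whereas absorptive enterocytes are the main epithelial site of P450 expression. RNA came from whole tissue, with 1 library per mouse, so a lower value can come from fewer cells of a type or from less RNA per cell, and these cannot be told apart.

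P450 enzymes are heme proteins that insert an oxygen atom into their substrate, with electrons passed on by P450 reductase (Por) or, in mitochondria, by ferredoxin. Families CYP1 to CYP4 act mostly on drugs, plant and food chemicals and fatty acids, while most other families make or break down sterols, bile acids, steroid hormones, vitamin D or retinoic acid. In the small intestine they sit chiefly in the villus enterocytes, where they act on swallowed chemicals before these reach the liver.

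Levels are in FPKM (fragments per kilobase of transcript, scaled to depth), which are per length and so can be set beside each other between genes. Depth was estimated at 8580000 to 10100000 fragments per library, lowest in Cre-positive 3 and highest in Cre-negative 1. Il17ra stood at 6.04, 5.91 and 6.53 FPKM in Cre-negative 1 to 3 and at 7.93, 8.36 and 6.07 in Cre-positive 1 to 3. This value sums all cells and all exons, so it does not check a deletion in the secretory lineage, and the groups below are those of the labels. Xist and Y-linked genes had a male pattern in Cre-negative 1 and 2 and Cre-positive 1. The pattern was female in Cre-negative 3 and Cre-positive 2 and 3. Of the 2 genes that define ileal enterocytes, Fabp6 ranged from 0.316 to 9.79 FPKM and Slc10a2 from 0.0669 to 1.94, while the ileal bile acid exporter Slc51a stood at 103 to 136. The low levels of Fabp6 and Slc10a2 go against the label of terminal ileum, and Ada, a gene of the proximal small intestine, ranged from 2.98 to 112 FPKM between libraries. Whether the segment differed between mice was not tested. Albumin (Alb) did not exceed 0.115 FPKM, though the hepatocyte marker Ttr ranged from 1.53 to 2.91. Of 6 pancreas acinar markers, 4 were listed at 0 in all 6 libraries, while Cela1 ranged from 2.17 to 3.90 FPKM. The colonocyte markers differed among themselves. Aqp8 did not exceed 0.261 FPKM and Car1 did not exceed 1.14, but Aqp4 ranged from 5.20 to 10.9 and Slc26a3 from 66.3 to 88.7.

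Of the 91 members, 29 (31.9%) had a mean of at least 1 FPKM over the 6 libraries and are called expressed here, 33 lay between 0 and 1 FPKM, and 29 were listed at 0 in every library. The expressed members came from 18 of the 38 subfamilies and 9 of the 16 families. Only 5 members stood above 100 FPKM (Cyp4f14, Cyp3a13, Cyp4v3, Cyp3a11 and Cyp3a25), 14 lay between 10 and 100, and 10 between 1 and 10. Cyp2r1, at a mean of 1.36 FPKM, was the lowest member inside the limit, and Cyp2c44, at 0.875, the highest outside it. Only members inside it entered the test between groups.

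**Figure D1:**
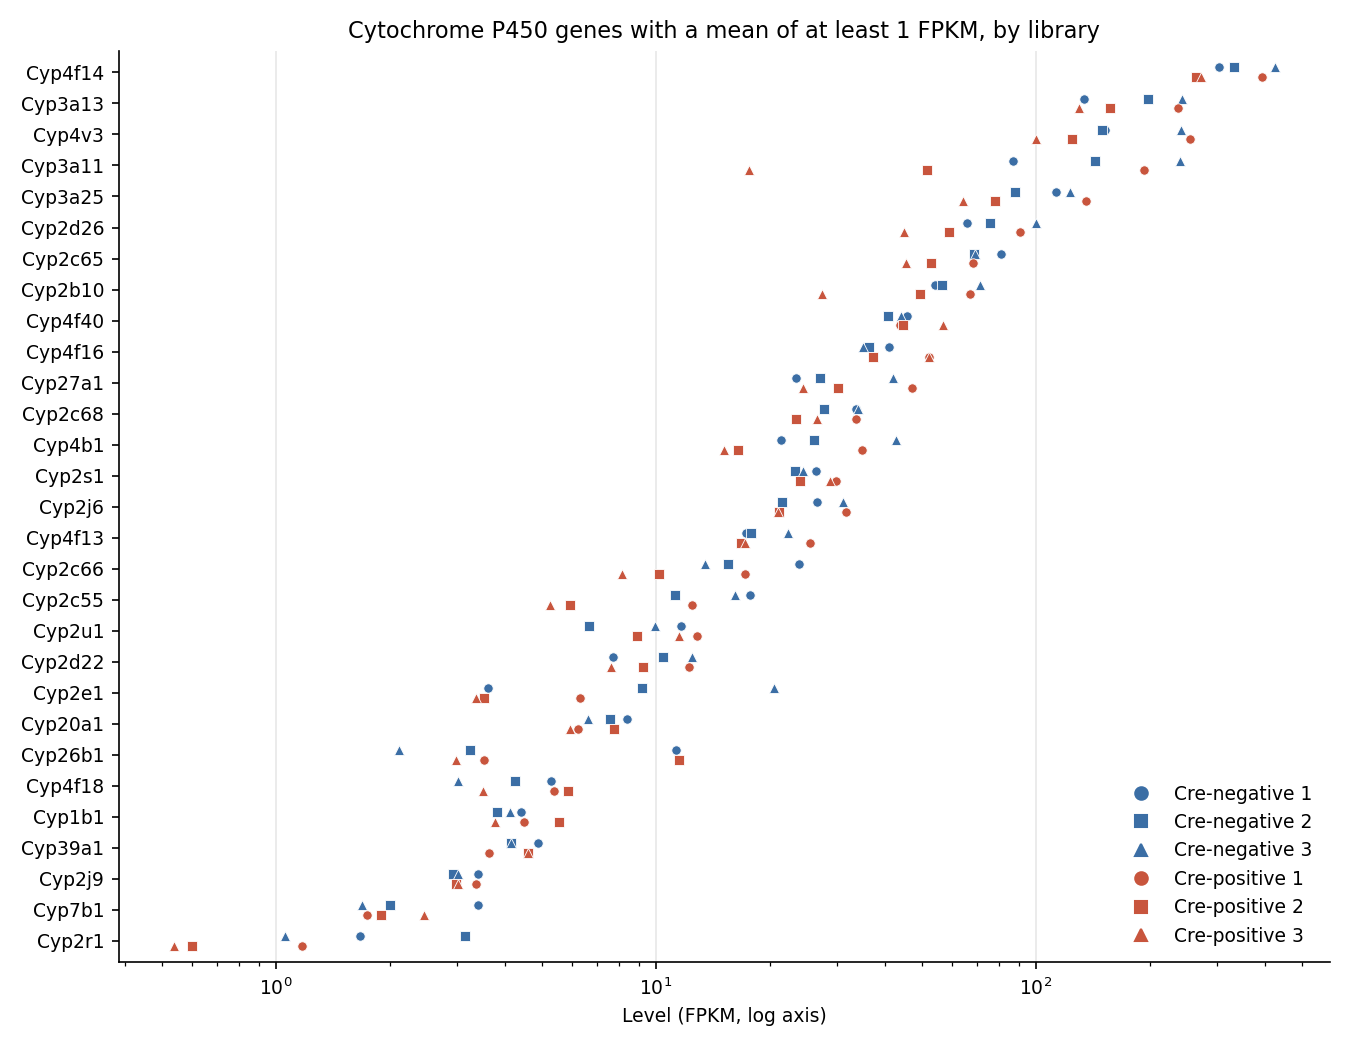
Level of each expressed P450 gene (log axis, FPKM) in the 6 libraries, with Cre-negative and Cre-positive libraries in different colours, a marker shape per replicate number, and genes in order of mean level. Cyp4f14 is the highest member in every library, and Cyp3a11 spans from 17.6 to 239 FPKM.

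CYP4F, the subfamily that hydroxylates the tail of fatty acids and leukotrienes, had the most expressed members, 5 of 8. Cyp4f14, which hydroxylates leukotriene B4, was the highest P450 gene in every library and held 21.4% to 26.9% of the summed member level. It stood at 302, 332 and 425 FPKM in Cre-negative 1 to 3 and at 393, 264 and 271 in Cre-positive 1 to 3. The highest and the next highest library belonged to different groups, and the groups overlapped. Cyp4f40 followed at 45.8, 40.8 and 44.2 against 43.9, 44.6 and 56.9 FPKM, and Cyp4f16 at 41.0, 36.4 and 35.0 against 52.3, 37.3 and 52.1. In Cyp4f16 2 Cre-positive libraries exceeded all the Cre-negative ones and the other lay among them. Cyp4f13 (16.8 to 25.4 FPKM) and Cyp4f18 (3.02 to 5.86), the latter known from neutrophils, were lower. Cyp4f17, Cyp4f15 and Cyp4f39 were under 1 FPKM. Elsewhere in family 4, Cyp4v3, the counterpart of the human fatty acid hydroxylase CYP4V2, stood at 152, 149 and 240 FPKM in Cre-negative and 255, 124 and 100 in Cre-positive libraries. Cyp4b1 stood at 21.3, 26.0 and 42.9 against 34.8, 16.4 and 15.1 FPKM. Both were highest in Cre-negative 3 and Cre-positive 1 and lowest in Cre-positive 3. The 4 CYP4A members, fatty acid hydroxylases of liver and kidney, did not reach 1 FPKM, and 2 of them were listed at 0 throughout.

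CYP3A, the main drug-metabolising subfamily of the gut, had 3 expressed members of 7. Cyp3a13 stood at 134, 197 and 242 FPKM in Cre-negative 1 to 3 and at 237, 156 and 129 in Cre-positive 1 to 3. Cyp3a11, a classic target of the xenobiotic receptor PXR (Nr1i2), stood at 87.0, 143 and 239 FPKM against 193, 51.7 and 17.6. Its highest library held 13.6 times the level of its lowest, and Cre-positive 1 lay inside the Cre-negative range while Cre-positive 2 and 3 lay below it. Cyp3a25 stood at 113, 88.0 and 123 against 135, 78.0 and 64.2 FPKM. Cre-positive 1 was its highest library, whereas Cyp3a13 and Cyp3a11 were highest in Cre-negative 3, and all 3 genes were lowest in Cre-positive 3. Cyp3a59, Cyp3a44, Cyp3a57 and Cyp3a16 were under 1 FPKM. Cyp3a11 shares 93.8% of aligned transcript bases with Cyp3a44 and Cyp3a25 shares 97.0% with Cyp3a59, so how fragments were split within each of these pairs is uncertain.

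CYP2C, whose enzymes act on drugs and on arachidonic acid, was the largest subfamily with 15 members, of which 4 were expressed. Cyp2c65 stood at 80.9, 68.8 and 69.2 FPKM in Cre-negative 1 to 3 and at 68.4, 52.9 and 45.5 in Cre-positive 1 to 3. Every Cre-positive library lay below every Cre-negative one, though Cre-positive 1 lay just under Cre-negative 2. Cyp2c55 stood at 17.7, 11.2 and 16.1 against 12.5, 5.93 and 5.26 FPKM, and Cyp2c66 at 23.7, 15.5 and 13.5 against 17.2, 10.2 and 8.13. In both, Cre-positive 1 lay in the Cre-negative range and the other Cre-positive libraries below it. Cyp2c68 stood at 33.7, 27.7 and 34.1 against 33.6, 23.4 and 26.5 FPKM. Cyp2c65 and Cyp2c66 share 96.4% of aligned transcript bases, and Cyp2c68 shares 98.0% with Cyp2c40, which was near 0 at a mean of 0.0207 FPKM. Their levels are therefore uncertain where fragments could match a copy, while the nearest member to Cyp2c55, Cyp2c29, was 77.9% identical.

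Several motifs were searched in RefSeq promoter windows (GRCm38.p6) from 250 bases before to 50 after each gene's start. Counts of the others are given last, and the motif described first is that of the enterocyte and liver factor HNF4 (CAAAGTCCA, either strand). A window was on hand for 70 members. It held the motif in 9 of the 70 (12.9%), against 127 of all 27025 windows (0.470%), and 6 of the 9 were among 13 CYP2C windows. Several of the 9 genes are close copies, so their windows are not independent and the shares are not a like comparison. Cyp2c40 shares 98.0%, 97.7% and 97.6% of aligned transcript bases with Cyp2c68, Cyp2c69 and Cyp2c67, and Cyp3a11 shares 91.8% with Cyp3a16. Of the 9, 3 belonged to expressed members (of 25 with a window) and 6 to others (of 45). The 3 expressed ones are shown with 2 unexpressed copies, since both kinds carry the same letters. Each is read on the gene's strand, with the motif in capitals.
Cyp3a11 (chr5:145879935-145879983, minus strand): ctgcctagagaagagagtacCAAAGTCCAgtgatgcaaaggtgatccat
Cyp3a16 (chr5:145469794-145469842, minus strand): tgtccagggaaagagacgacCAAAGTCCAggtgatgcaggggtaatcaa
Cyp2c65 (chr19:39060870-39060918, plus strand): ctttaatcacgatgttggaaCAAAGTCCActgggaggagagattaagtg
Cyp2c68 (chr19:39741150-39741198, minus strand): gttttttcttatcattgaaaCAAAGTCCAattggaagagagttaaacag
Cyp2c40 (chr19:39812831-39812879, minus strand): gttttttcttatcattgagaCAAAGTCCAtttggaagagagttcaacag
The motif began 109 bases before the start of Cyp3a11 and 99 before that of Cyp3a16, with means of 122 and 0.0112 FPKM. It began 77 bases before Cyp2c68 and 45 before Cyp2c40, with means of 29.8 and 0.0207 FPKM, and 116 before Cyp2c65. These distances depend on the annotated start. That of Cyp2c68 lay 47 bases from the GENCODE start, and in Cyp2c40 a TATAAA sequence lay at base 41 after the start. The distances are therefore not a like comparison between the copies. The match is a description of the sequence and does not show binding. A core of the aryl hydrocarbon receptor site, GCGTG on either strand, was in the windows of 8 expressed and 6 other members and in 32.6% of all windows.

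The remaining CYP2 subfamilies had at most 2 expressed members each. Cyp2b10, the textbook target of the receptor CAR (Nr1i3), stood at 54.2, 56.4 and 71.2 FPKM in Cre-negative and 67.2, 49.7 and 27.3 in Cre-positive libraries, and the other 4 CYP2B members were listed at 0 in all libraries. Cyp2d26 stood at 65.9, 75.9 and 99.7 against 90.7, 59.0 and 45.0 FPKM. Both had their highest library in Cre-negative 3 and their lowest in Cre-positive 3. Cyp2d22 ranged from 7.63 to 12.4 FPKM, and the other 7 CYP2D members did not exceed 0.0773 in any library. Among the CYP2J epoxygenases, which act on arachidonic acid, Cyp2j6 (20.9 to 31.6 FPKM) and Cyp2j9 (2.93 to 3.40) were expressed and the other 5 were not. Cyp2s1, a P450 of epithelia, was even across the libraries at 23.3 to 29.8 FPKM. The fatty acid hydroxylase Cyp2u1 ranged from 6.68 to 12.8 FPKM, and none of the 4 CYP2A members exceeded 0.0724.

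Cyp2e1, which oxidises ethanol and is also high in fat tissue, stood at 3.61, 9.20 and 20.4 FPKM in Cre-negative 1 to 3 and at 6.30, 3.52 and 3.35 in Cre-positive 1 to 3. Cre-negative 3 was the highest library, followed by Cre-negative 2 and Cre-positive 1, and the groups overlapped. Summed levels of 5 adipocyte markers had the same 3 libraries on top, at 62.1, 85.0 and 105 FPKM against 64.1, 59.8 and 52.9. The markers did not agree on Cre-positive 1. Cidec stood at 25.6 FPKM there, but Fabp4 (34.2) and Plin1 (0.766) had their lowest values in that library. The part of adipocytes in the result was not tested.

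Genes of sterol and bile acid metabolism were represented by Cyp27a1, the mitochondrial sterol hydroxylase, at 23.3, 27.0 and 42.1 FPKM in Cre-negative and 47.2, 30.2 and 24.3 in Cre-positive libraries. The oxysterol hydroxylases Cyp39a1 (3.63 to 4.90 FPKM) and Cyp7b1 (1.68 to 3.41) were low. Cyp46a1, the cholesterol hydroxylase of brain, did not exceed 0.153 FPKM. Cyp7a1 and Cyp8b1, which make bile acids in hepatocytes, were listed at 0 in every library. Of the 7 genes listed for bile acid and oxysterol metabolism, 3 were expressed.

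In vitamin D and retinoid metabolism, Cyp26b1, which breaks down retinoic acid, stood at 11.3, 3.23 and 2.10 FPKM in Cre-negative and 3.52, 11.5 and 2.98 in Cre-positive libraries. A single library in each group was high, and the means were 5.54 ± 5.003 and 6.00 ± 4.78 FPKM (SD, n = 3 each). The summed level of 5 mast cell markers was also highest in those 2 libraries. It stood at 15.7 in Cre-negative 1 and 19.6 in Cre-positive 2 against 11.5 to 13.1 FPKM in the others. The markers did not agree on Cre-negative 1. Mcpt1, Mcpt2 and Mcpt4 had their highest values in those 2 libraries, Mcpt4 at no more than 0.134 FPKM. Kit stood at 9.25 FPKM in Cre-negative 1, below Cre-positive 1 (9.56) and Cre-positive 3 (9.31), and Cpa3 was highest in Cre-positive 3 (0.267). The part of mast cells in the result was not tested. Cyp2r1, a vitamin D hydroxylase of liver, stood at 1.66, 3.14 and 1.05 against 1.17, 0.602 and 0.538 FPKM. Cyp2r1 passed the limit of 1 FPKM through the Cre-negative group, whose mean was 1.95 ± 1.07 FPKM against 0.770 ± 0.347 (SD, n = 3 each). Cyp24a1, which inactivates vitamin D and is a target of its receptor, was above 0 in 1 library (0.0335 FPKM) although that receptor (Vdr) averaged 91.0 ± 5.01 and 98.5 ± 4.81 FPKM (SD, n = 3 each). Cyp27b1 did not exceed 0.202 FPKM. None of the 6 genes of steroid hormone synthesis was expressed, the highest being Cyp17a1 at 0.120 to 0.932 FPKM, and Cyp11a1 was above 0 in 1 library (0.0607 FPKM).

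In family 1, the targets of the aryl hydrocarbon receptor, Cyp1a1 stood at 0.277, 0.649 and 0.128 FPKM in Cre-negative and 0.808, 1.05 and 0.418 in Cre-positive libraries. The groups overlapped, the values correspond to an estimated 3.09 to 24.5 fragments, and Cyp1a1 was under the limit for testing. Cyp1b1, found mostly in stroma, ranged from 3.78 to 5.56 FPKM, and Cyp1a2 was listed at 0. Cyp20a1, a P450 without a settled substrate, ranged from 5.92 to 8.37 FPKM.

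**Figure D2:**
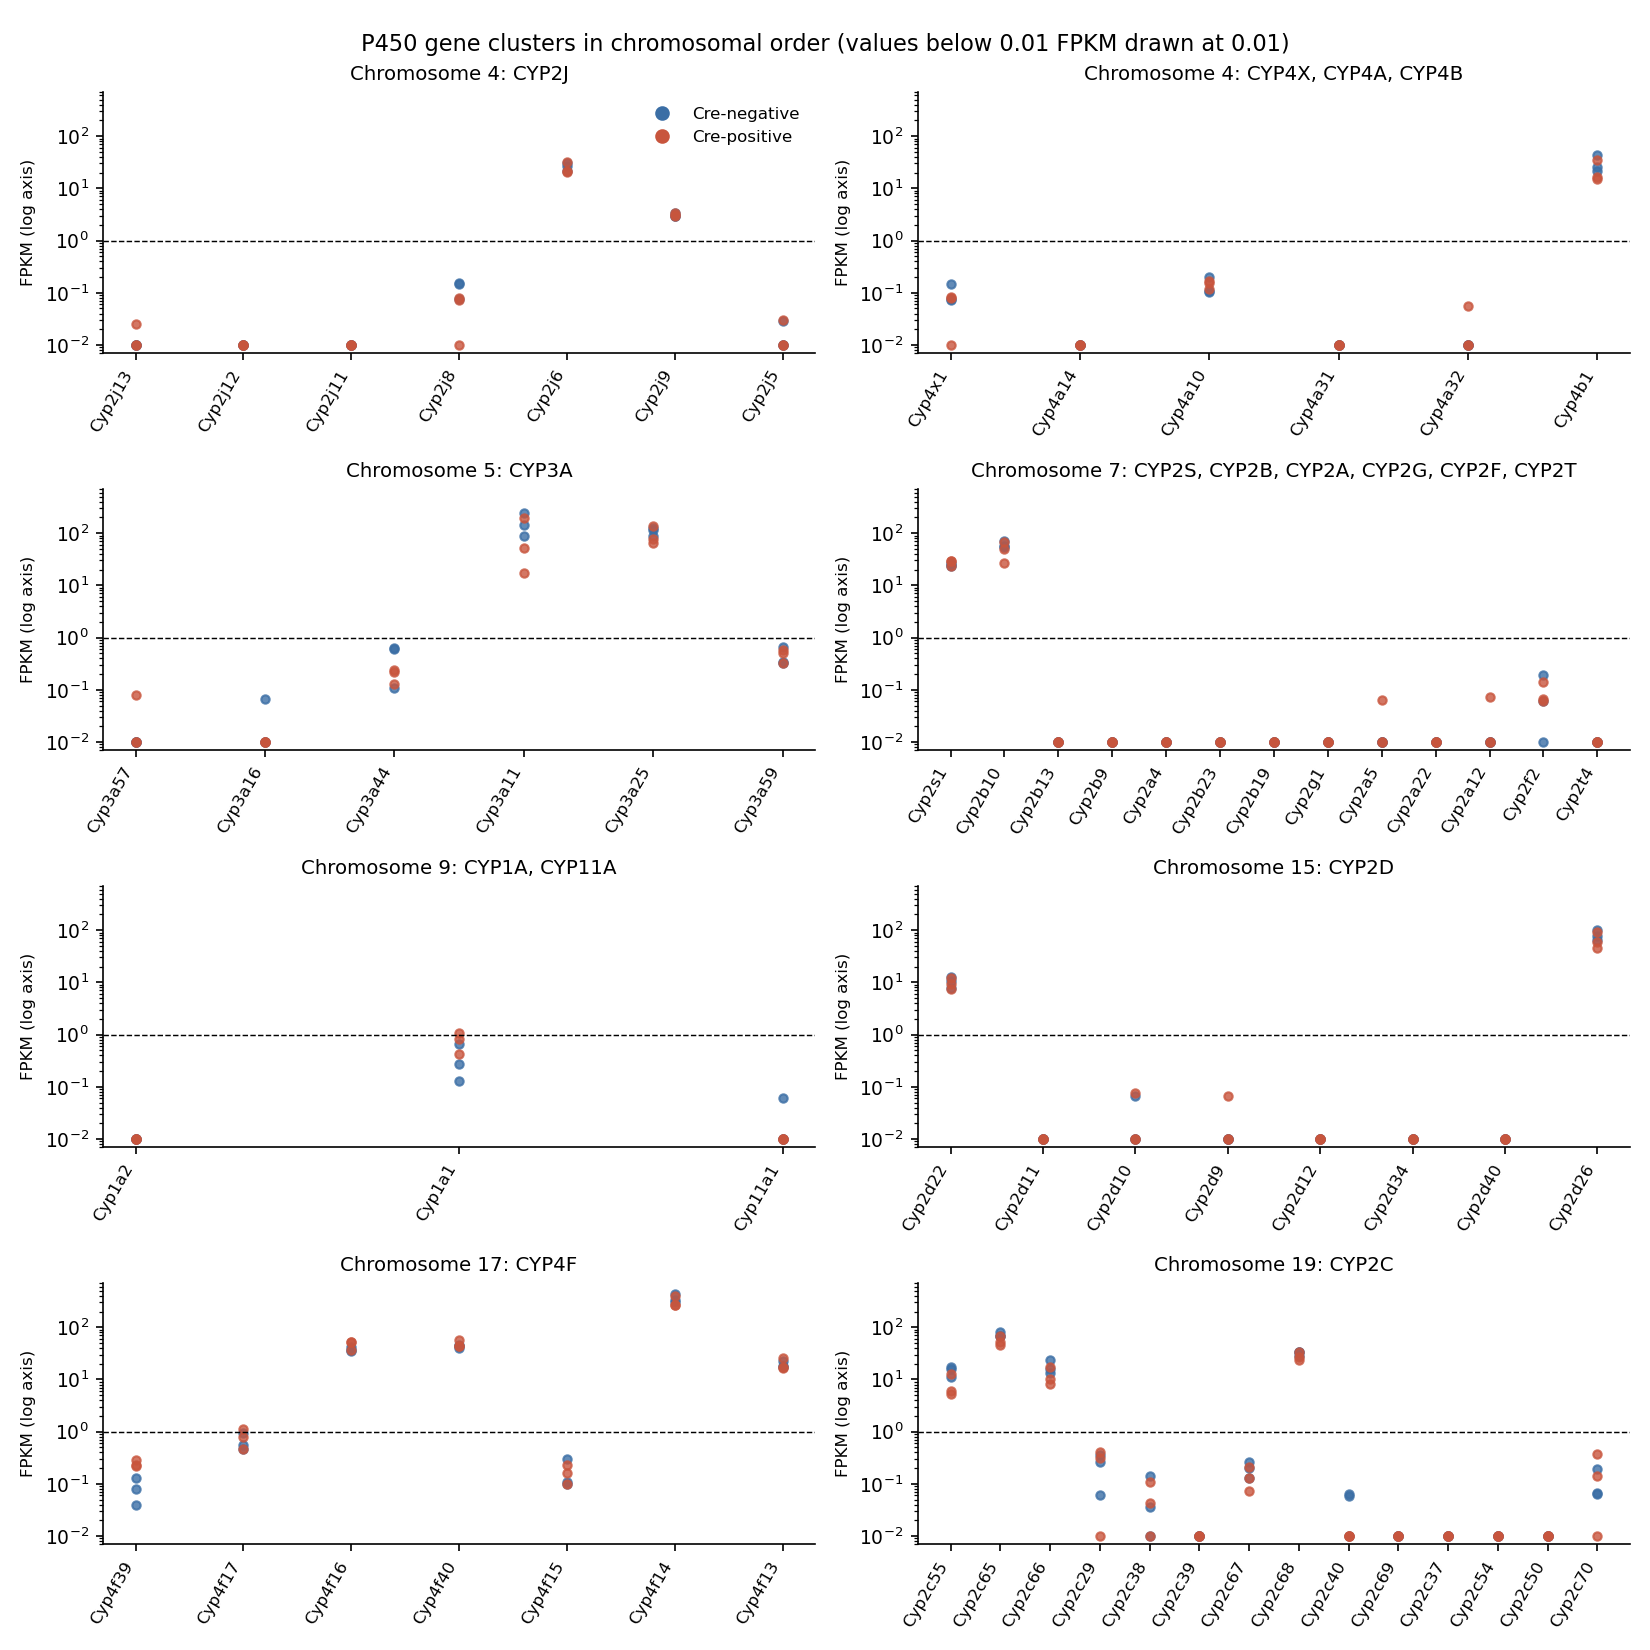
Level in each library (points, FPKM, log axis, values below 0.01 drawn at 0.01) of the members of 8 genomic clusters (3 or more members, each less than 1 Mb from the next), in chromosome order and not to scale; the dashed line is 1 FPKM. Expressed members stand among members at or near 0, and the 2 expressed CYP2D genes are the ends of their cluster.

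Expression was uneven within the genomic clusters (GRCm38, GENCODE annotation). The CYP2C cluster on chromosome 19 (39007019 to 40187333) held 14 members, and 3 of the 4 expressed, Cyp2c55, Cyp2c65 and Cyp2c66, were its first neighbours. In the CYP2D cluster on chromosome 15 (82370527 to 82794294), Cyp2d22 and Cyp2d26 lay at the ends with 6 unexpressed members between them. The CYP4F cluster on chromosome 17 (32452723 to 32947402) had 4 expressed members of 7. On chromosome 7 (25802475 to 27158668), Cyp2s1 and Cyp2b10 were the first of 13 members and the only expressed ones.

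Between the groups, no P450 gene passed the test. With limma on log2(FPKM + 1), 0 of 29 expressed members had an adjusted p under 0.05 (Benjamini-Hochberg over all 12695 genes tested), against a background of 0.00% of all genes. The smallest adjusted p of a member was 0.998 by limma. At an unadjusted p under 0.05, 0 of 29 members were higher in Cre-positive libraries (2.54% of all genes, 323) and 3 were lower (1.07% of all genes, 136). Cyp2r1 is 1 of these 3 and entered the test only through the group in which it is high, so its p is not given, and without it 2 of 28 members were lower. The ratio of higher to lower genes depends on scaling, being 1119 to 54 when every library was scaled to the same total and 269 to 219 under quantile normalization. Groups that did not overlap were found in 0 members higher (5.77% of all genes) and 1 lower (2.60%), which was Cyp2c65.

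The 2 others were Cyp2c55 and Cyp2c65. Cyp2c55 averaged 15.0 ± 3.36 FPKM in Cre-negative and 7.88 ± 3.98 in Cre-positive libraries (SD, n = 3 each), a log2 fold change of -0.91 with a standard error of 0.29 (limma, unadjusted p = 0.0151, adjusted p = 0.998). Cyp2c65 averaged 73.0 ± 6.88 and 55.6 ± 11.7 FPKM, a log2 fold change of -0.40 with a standard error of 0.16 (limma, unadjusted p = 0.0332). The fold changes are on the log2(FPKM + 1) scale, which understates differences of low genes. The lowest fold change of all members was that of Cyp3a11, at -1.34, but its standard error was 0.77 (limma, unadjusted p = 0.122), since its group means of 156 ± 76.8 and 87.4 ± 93.0 FPKM (SD, n = 3 each) were no further apart than the spread within groups. The highest was that of Cyp4f16, at 0.31 with a standard error of 0.15 (limma, unadjusted p = 0.0661), with means of 37.5 ± 3.15 and 47.3 ± 8.61 FPKM. Over the 29 members, Cyp2r1 included, 19 fold changes were below 0 (65.5%, against 41.6% of all genes). The median of the 29 was -0.14 against 0.03. The count below 0 was 16 with libraries scaled to the same total, where the median of all genes was 0.13. It ran from 16 (without Cre-positive 3) to 22 (without Cre-negative 2) when a library was left out.

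**Figure D3:**
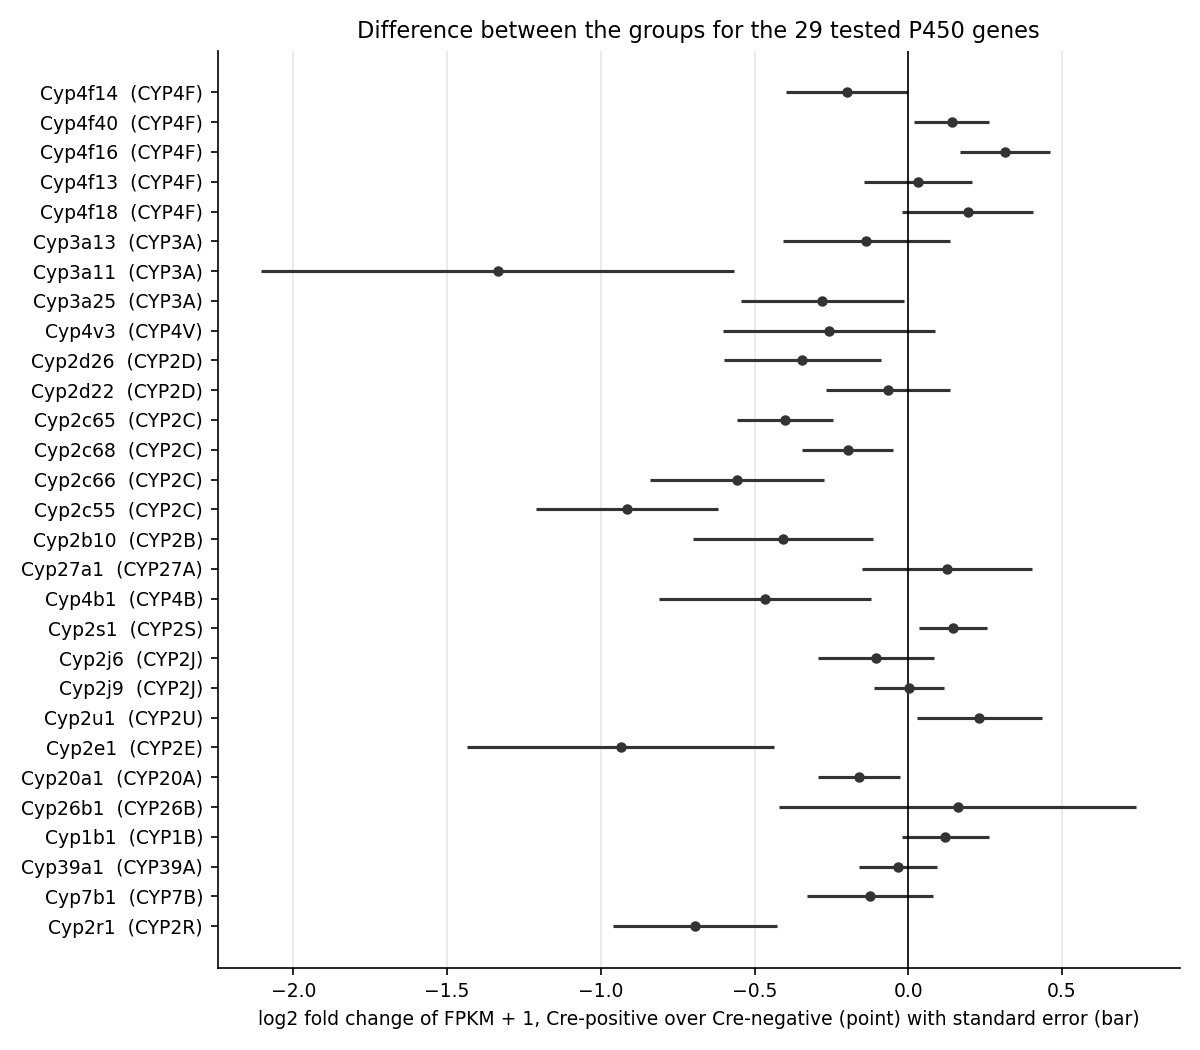
Log2 fold change of FPKM + 1, Cre-positive over Cre-negative (points), with its standard error (bars) for the 29 expressed P450 genes, ordered by subfamily. All 4 CYP2C genes lie below 0, Cyp3a11 has the widest bar, and no gene passes an adjusted p of 0.05.

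The spread of P450 levels between libraries was larger than the median over all genes. The median SD of log2 levels over the 6 libraries was 0.31 for the 29 members and 0.16 for all expressed genes, and 13 members (44.8%) varied more than 2-fold against 12.4% of all genes. The summed member level was 1338, 1419 and 1888 FPKM in Cre-negative 1 to 3 and 1833, 1133 and 1010 in Cre-positive 1 to 3. Cre-negative 3 and Cre-positive 1 were thus the highest libraries and Cre-positive 3 and 2 the lowest, and the groups overlapped. The CYP3A sum ran from 212 to 605 FPKM, while the CYP4F sum ran from 370 to 530.

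**Figure D4:**
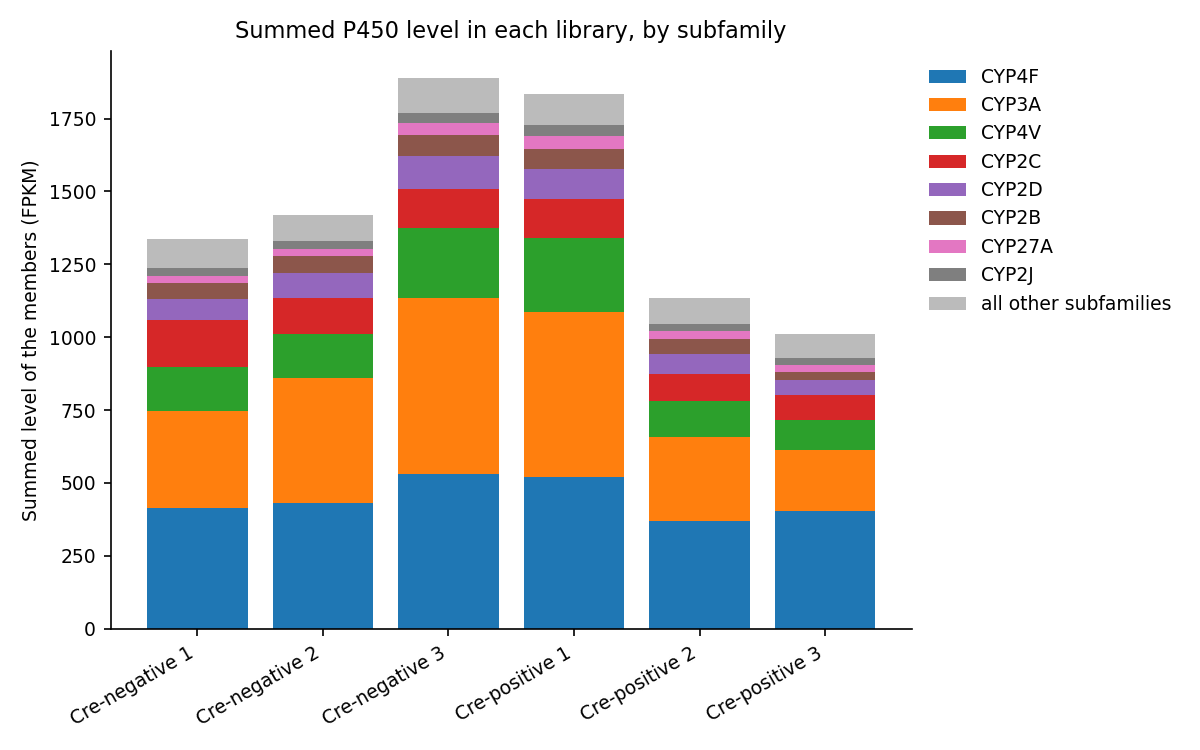
Summed FPKM of all members in each library (bars start at 0), divided by subfamily. Cre-negative 3 (1888) and Cre-positive 1 (1833) stand highest and Cre-positive 3 (1010) lowest.

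Of the 29 expressed members, 17 (58.6%) were highest in Cre-negative 3 or Cre-positive 1, against 23.5% of all expressed genes, and 16 (55.2%) were lowest in Cre-positive 3, against 13.1%. Of the 19 members at 10 FPKM or more, 15 (78.9%) were highest in Cre-negative 3 or Cre-positive 1, against 26.3% of all genes at that level, and 11 (57.9%) were lowest in Cre-positive 3, against 13.0%. These libraries are the extremes of the summed level of the same members, so the counts are partly fixed in advance. The shares of all genes carry no such choice and are not a like comparison. Values in Cre-positive 3 were lower for 19 of 29 (65.5%) than in every Cre-negative library, those in Cre-positive 2 for 15 (51.7%) and those in Cre-positive 1 for 3 (10.3%). For all genes the shares were 18.4%, 18.1% and 20.05%. Without Cre-positive 1, 11 of 29 members (37.9%) were lower at an unadjusted p under 0.05 in limma, against 2.93% of all genes, and none passed adjustment. Without Cyp2r1 as well, 10 of 28 were lower. Cre-positive 1 had the highest summed member level of its group (1833 against 1133 and 1010 FPKM). Leaving it out thus lowers the Cre-positive mean of most members, so this count too is partly fixed in advance. The share of all genes carries no such choice and is not a like comparison. In that fit both Cre-positive libraries had a female pattern, while Cre-negative 1 and 2 had a male one. Group and sex were thus partly tied in it, and the part of sex was not tested there. The 11 were Cyp2b10, Cyp2c55, Cyp2c65, Cyp2c66, Cyp2c68, Cyp2d26, Cyp2r1, Cyp3a11, Cyp3a25, Cyp4b1 and Cyp4v3. Without Cre-positive 2 the number was 0, without Cre-positive 3 it was 1, without Cre-negative 1 or Cre-negative 2 it was 1, and without Cre-negative 3 it was 4 (Cyp2c55, Cyp2c65, Cyp2c66 and Cyp2r1).

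Of 10 enterocyte markers, 7 were highest in Cre-negative 3 or Cre-positive 1 and 4 were lowest in Cre-positive 3 (Apoa1, Apoa4, Alpi and Lct). The summed level of the 10 was 5083, 7896 and 9457 FPKM in Cre-negative and 9931, 5426 and 3772 in Cre-positive libraries, most of it from the apolipoproteins Apoa1 and Apoa4. Apoa1 stood at 2782, 3958 and 5837 against 5747, 2788 and 1728 FPKM, and lactase (Lct) at 249, 244 and 368 against 419, 251 and 188. Other markers of the list went another way. Slc51a was highest in Cre-positive 3 (136) and lowest in Cre-positive 1 (103), its partner Slc51b was highest in Cre-negative 2 (88.9) and lowest in Cre-positive 1 (53.7), and sucrase-isomaltase (Sis) ranged only from 583 to 649 FPKM. The adenosine deaminase Ada stood at 5.22, 77.6 and 35.4 against 112, 22.7 and 2.98 FPKM. Its lowest library was also Cre-positive 3, but the other listed markers of the jejunum had theirs elsewhere. Fabp1 was lowest in Cre-positive 1 (718 FPKM), Fabp2 in Cre-positive 2 (1241), and Slc2a2 (60.4) and Slc5a1 (386) in Cre-negative 1. B cell markers summed to 15.4, 11.6 and 6.52 FPKM in Cre-negative and 63.9, 75.6 and 10.4 in Cre-positive libraries. The part of cell makeup, of the position along the gut and of the sex of the mice in the P450 differences was not tested beyond a fit with a sex term, in which Cyp2c55 but not Cyp2c65 had an unadjusted limma p under 0.05.

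**Figure D5:**
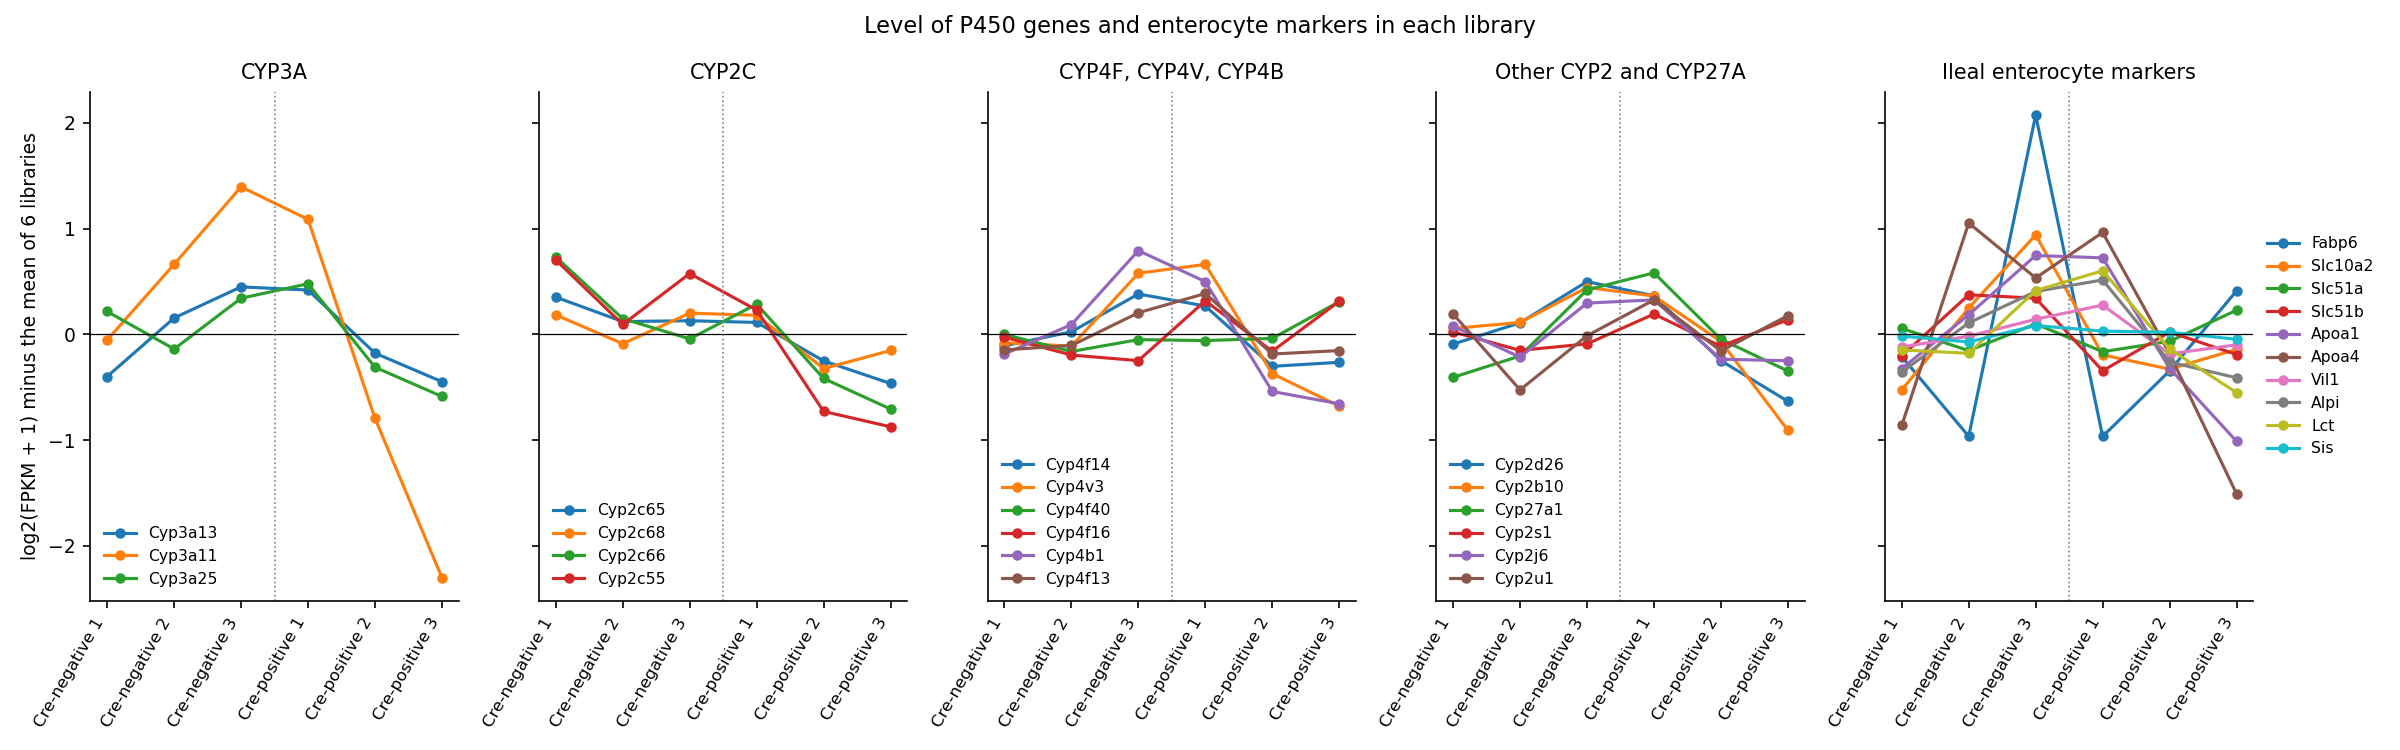
Level of P450 genes and of enterocyte genes in each library relative to the gene's mean over the 6 libraries (log2 of FPKM + 1). Shown are the 19 members at 10 FPKM or more and the 10 enterocyte markers, not all of which are particular to the ileum. Lines only join the values of a gene. Of the 19 members, 15 are highest in Cre-negative 3 or Cre-positive 1, and Cyp4f40, Cyp2c65, Cyp2c66 and Cyp2c55 are not.

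No gene of the lists that work with P450 enzymes passed the test. None of 10 electron donors and membrane partners passed at an adjusted or unadjusted p under 0.05 in limma. Por averaged 37.3 ± 1.64 and 43.0 ± 2.98 FPKM (SD, n = 3 each) with a log2 fold change of 0.20, and Cyb5a, which supports several P450 reactions, 299 ± 27.1 and 253 ± 12.6 with -0.24. Over the 50 tested genes of these lists, groups did not overlap in 3 that were higher in Cre-positive libraries (Por, Arnt and Alas1) and 2 that were lower (Cyb5a and Pgrmc1), against 5.77% and 2.60% of all genes. None of 18 tested receptors and cofactors passed either way. Hnf4a averaged 233 ± 20.1 and 229 ± 27.0 FPKM and Nr1i2 46.4 ± 1.44 and 49.9 ± 2.76, while the bile acid receptor Nr1h4 averaged 30.2 ± 5.31 and 24.3 ± 3.998 and the fat cell regulator Pparg 5.22 ± 0.977 and 4.24 ± 0.106. Nor did any of 5 tested targets of the aryl hydrocarbon receptor pass, with Ugt1a6a at 4.30 ± 0.574 and 5.80 ± 1.68 FPKM and the receptor's repressor Ahrr at 1.96 ± 0.271 and 1.70 ± 0.260. The same held for 12 genes of heme synthesis and breakdown, among them Alas1, its first enzyme, at 19.1 ± 1.65 and 22.3 ± 1.61 FPKM and the next enzyme, Alad, at 10.2 ± 0.791 and 9.56 ± 0.750. The 2 tested epoxide hydrolases, which act on P450 products, did not pass, with Ephx2 at 98.0 ± 23.8 and 86.7 ± 29.01 FPKM and Ephx1 at 8.37 ± 0.603 and 9.34 ± 2.45. Of P450 superfamily genes outside the symbol pattern, 3 were tested and 0 passed, with the cholesterol synthesis enzyme Cyp51 at 11.6 ± 1.20 and 12.3 ± 1.25 FPKM and prostacyclin synthase (Ptgis) at 1.23 ± 0.206 and 1.56 ± 0.312.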

How the data were processed

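RNA of 6 mice was sequenced, 1 library each. Tools in the submitters' processing notes are STAR, Cufflinks, Cuffnorm, Trimmomatic, FastQC, bedtools and SAMtools, and builds are mm10 and GRCm38. The authors deposited 1 table of FPKM values. Scaling between libraries, sharing of fragments between similar genes and use of strand: not given in the sources used here. No count model suits such values. Depth was estimated from the step that 1 fragment makes in low values of genes with a single transcript.

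The 12695 genes whose mean reached 1 FPKM were tested on log2(FPKM + 1) with limma 3.58.1 (R 4.3.3; moderated, two-sided, intensity trend) and Benjamini-Hochberg adjustment at 0.05. The script was tested on simulated data. Groups came from the labels. The members and gene lists were chosen with earlier results of these data known. Named members were the 20 highest, those with an unadjusted p under 0.05, those whose groups did not overlap, the highest of each family and Cyp1a1. Other members given with values, such as Cyp2e1, Cyp4f18, Cyp2j9 and Cyp27b1, fall outside this rule and were chosen after their values were seen. Of each pathway list the 2 genes with the smallest p were named, and Hnf4a, Nr1i2, Vdr, Arnt, Pgrmc1 and the cell markers were added after their values were seen. Cyb5a and the macrophage marker Adgre1 were found under older symbols. Coordinates are GENCODE M21 (89 members matched). Identity is over the longest coding transcripts, aligned with blastn 2.17.0. In all, 18 alternative settings were tried.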

Additional observations from a re-analysis of the deposited data

How the results depend on the processing

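No member passed an adjusted p of 0.05 in limma under any of the 18 settings, and 19 of 29 members kept their direction in all settings run. Leaving out Cyp2r1, which passed the filter through 1 group, the smallest adjusted limma p of a member was 0.0967 (Cyp2c55). Over all genes the count past adjustment was 0; it was 2 with a pseudocount of 0.1, with a pseudocount of 5 and with libraries scaled to the same total, 24 with array weights, and 0 to 41 when a library was left out (41 without Cre-positive 3). The count of members higher at an unadjusted p under 0.05 was 0; it was 1 without the filter (Cyp4f39, of 1 to 7 estimated fragments), 1 with libraries scaled to the same total, 1 after quantile normalization and 1 with a sex term chosen after the data were seen (Cyp4f16 in each), 3 with array weights, and 0 to 1 when a library was left out. The count lower was 3. It was 2 with a filter of 5 FPKM, with libraries scaled to the same total and with the sex term. It was 4 with the replicate block, 8 with array weights and 0 to 11 when a library was left out. Cyp2r1 is in each of these counts except that with the filter of 5 FPKM and some of those with a library left out. Scaling to the same total moved the median of all genes from 0.03 to 0.13. The median of the members stayed below 0 throughout, from -0.29 to -0.06 when a library was left out. The cause of these changes was not tested.

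Some fold changes turned, and not all of them were near 0. In the main fit Cyp4v3 was at -0.26 and Cyp26b1 at 0.16. After median-of-ratios scaling Cyp4f13 was at -0.0018 and Cyp2j9 at -0.0229, and Cyp2j9 was at -0.0711 after quantile normalization. With libraries scaled to the same total, Cyp2j6 was at 0.0052, Cyp2d22 at 0.0365 and Cyp39a1 at 0.0611. With array weights Cyp2j6 was at 0.0009, Cyp4f13 at -0.0128 and Cyp39a1 at 0.0689. With 1 library left out, the range was -0.3807 to 0.0534 for Cyp3a13, -0.6541 to 0.0153 for Cyp4v3, -0.1332 to 0.3682 for Cyp27a1, -0.2946 to 0.0162 for Cyp2j6, -0.1538 to 0.1414 for Cyp4f13, -0.2354 to 0.0779 for Cyp2d22, -0.3592 to 0.7478 for Cyp26b1, -0.0803 to 0.0587 for Cyp39a1, -0.0389 to 0.052 for Cyp2j9 and -0.2704 to 0.0876 for Cyp7b1.

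Replicate numbers are shared by the groups, but same-numbered libraries deviated together with correlations of -0.13, 0.0343 and -0.113, so the numbers were not taken as pairs. With a replicate block 1 of all genes and 0 members passed adjustment.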
